A study of Saccharomyces cerevisiae with 9 samples.

Results

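The late ergosterol pathway of Saccharomyces cerevisiae is represented here by 5 genes, ERG24 (YNL280C), ERG6 (YML008C), ERG2 (YMR202W), ERG3 (YLR056W) and ERG4 (YGL012W). They were chosen by name for the enzymes they encode, were found in all 9 libraries among 6629 counted genes, and all 5 passed the filter on low counts. RNA was sequenced from 3 strains grown exponentially in SD medium, with 3 repeats of each. All 3 strains share the background HISDel1 LEU2Del0 MET15Del0 URA3Del0 and a NATR marker, which confers resistance to nourseothricin. The control carries the marker at HO, a mating-type switching endonuclease gene. The overexpression strain carries it with a TEF promoter in front of YET3, so that YET3 is driven by a constitutive promoter at its own locus. In the strain labelled YET3 deletion the marker stands in place of YET3. The labels do not say how many clones or cultures stand behind the repeats, so a test here sees only how far these libraries spread, and that spread may be technical.

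Ergosterol is the main sterol of yeast membranes, and its synthesis after lanosterol proceeds in the endoplasmic reticulum. After the C-14 methyl group of lanosterol is removed, Erg24 reduces the C-14 double bond left behind. Erg6 adds a methyl group at C-24 of the side chain, Erg2 shifts a double bond from C-8 to C-7, Erg3 introduces the C-5 double bond, and Erg4 reduces the C-24(28) double bond in the last step. Genes of the pathway are induced when sterols run low by the transcription factors Upc2 and Ecm22, which bind a sterol regulatory element. Upc2 also acts on anaerobic genes through a related site, AR1.

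The stretches of upstream DNA that hold letters of these sites are shown because all 5 genes carry at least 1 such match. Each is written 5′ to 3′ on the strand of its gene, from build R64 of the RefSeq genome, and capitals mark the matches. The ERG24 stretch is chrXIV:110650-110717 (minus strand), that of ERG6 is chrXIII:253386-253452 (minus strand), that of ERG2 is chrXIII:667322-667388 (plus strand), that of ERG3 is chrXII:253412-253611 (plus strand) and that of ERG4 is chrVII:472609-472676 (plus strand).
ERG24: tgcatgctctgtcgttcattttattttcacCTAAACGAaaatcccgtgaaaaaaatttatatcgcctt
ERG6: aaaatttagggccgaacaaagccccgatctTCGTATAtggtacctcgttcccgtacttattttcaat
ERG2: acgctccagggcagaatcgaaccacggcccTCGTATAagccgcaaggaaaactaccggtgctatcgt
ERG3: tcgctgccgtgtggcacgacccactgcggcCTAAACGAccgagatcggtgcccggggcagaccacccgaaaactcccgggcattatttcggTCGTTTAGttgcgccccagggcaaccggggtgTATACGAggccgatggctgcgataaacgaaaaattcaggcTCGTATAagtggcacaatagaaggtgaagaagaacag
ERG4: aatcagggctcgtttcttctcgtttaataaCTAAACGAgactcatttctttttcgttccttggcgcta

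The search covered TCGTATA (the sterol regulatory element) and TCGTTTAG and TCGTTCAG (AR1-type sites) on both strands of the 600 bases before each start codon, and the matches shown do not overlap each other. ERG6, ERG2 and ERG3 held TCGTATA, which 8.56% of 6018 such windows of protein-coding genes held. ERG24, ERG3 and ERG4 held TCGTTTAG, which 2.08% of windows held, and no window of the 5 genes held TCGTTCAG, against 1.69% of all. At least 1 of the 3 motifs was present in 11.7% of windows. ERG3 alone among the 5 held both kinds, with 4 matches between 419 and 280 bases before its start codon. Of the 6018 windows 2 had 4 or more, that of ERG3 and that of the divergent gene SPT8. The SPT8 window covers the same 4 matches, so these 2 windows are not separate cases. The single matches lay at 276 to 269 bases in ERG24, 432 to 426 in ERG6, 185 to 179 in ERG2 and 216 to 209 in ERG4. In ERG6 the small gene MIN4 (chromosome XIII, 253162 to 253272) lies between the match and the start codon. The 600-base window was chosen after a window of 250 bases before to 50 after the start codon had shown matches in ERG2 and ERG4 only, against 5.81% of all windows. In the 600-base windows the core of the Rox1 site, ATTGTT, was found in 4 of the 5 genes (54.9% of all) and TATAAA in 2 (65.3% of all). These matches describe letters and do not show binding.

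**Figure D1:**
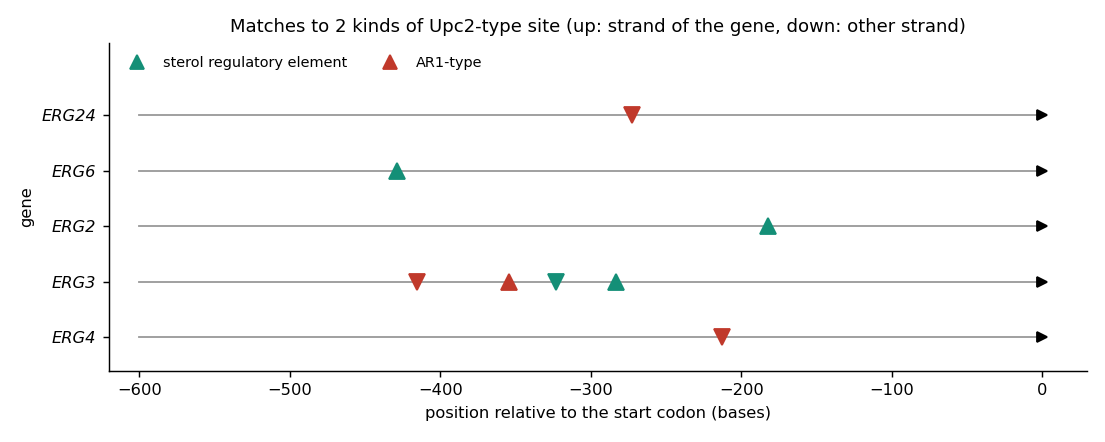
Positions of matches to the sterol regulatory element (green) and to AR1-type sites (red) in the 600 bases before the start codon of each gene; the x axis is in bases relative to the start codon, triangles pointing up are on the strand of the gene and those pointing down on the other strand. ERG3 has 4 matches and each of the other genes has 1.

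The libraries held between 223189 and 1634021 counts, so that 1 count stood for 0.612 to 4.48 CPM, counts scaled to a common total. CPM below are scaled between libraries by TMM, a trimmed mean of ratios, and give shares of a library, so a change in the total RNA of a cell is not measured. YET3 stood at 477, 477 and 479 CPM in control 1 to 3 and at 2261, 2029 and 1341 CPM in overexpression 1 to 3. In the libraries labelled deletion 1 to 3 it stood at 728, 328 and 639.5 CPM, which goes against that label if the row counts the deleted part, and no source at hand says whether it does. HO had 28.2 to 57.1 CPM in the control and 0 to 7.59 CPM in the other libraries. On the first principal component of all tested genes (47.6% of the variance), overexpression 3 and the labelled deletion libraries 1 and 3 had scores of 27.7 to 38.9, against -25.7 to -10.55 for the other 6, and they are said below to lie apart. The ribosomal DNA rows YLR154W and its subrows took 0.111% to 0.267% of their counts, against 0.817% to 2.42% elsewhere. No control library is among these 3, and values without them are given beside the tests of the members.

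In control cells the isomerase gene ERG2 was the most abundant of the 5 per length and the reductase genes ERG4 and ERG24 the least. Per kilobase of coding length, the scale on which genes are compared here, ERG2 stood at 794 ± 107 CPM (SD, n = 3), ERG6 at 289 ± 45.0, ERG3 at 143 ± 14.1, ERG4 at 100.2 ± 6.37 and ERG24 at 84.9 ± 21.1. Libraries of neighbouring genes in this order did not overlap except for ERG4 and ERG24, whose levels did not differ beyond their spread. In CPM not divided by length, ERG3 (144 to 174) and ERG4 (132 to 149) overlapped as well. Since no source at hand gives the part of a transcript that was counted, a level per length may misstate the number of molecules. In overexpression ERG3 came second, at 853 ± 139 CPM per kilobase (SD, n = 3), behind ERG2 at 1476 ± 736 and before ERG6 at 473 ± 314, with overlap between these neighbours. In the libraries labelled deletion the order was ERG2, ERG3, ERG6, ERG4 and ERG24, and only ERG2 was clear of its neighbour.

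Overexpression of YET3 went with higher transcript levels of the desaturase gene ERG3 and the last reductase gene ERG4. Both passed edgeR's quasi-likelihood test, ERG3 with a 5.93-fold and ERG4 with a 2.17-fold higher level. The first reductase gene ERG24 was higher in every overexpression library than in any control library but missed the threshold. ERG6 and ERG2 were high in overexpression 1 and 2 and below every control library in overexpression 3. Thus 2 of the 5 genes were called higher and 0 lower, where 0.629% of 5090 genes tested were called higher and 0.216% lower. At an unadjusted p under 0.05, 4 of the 5 were higher and 0 lower by edgeR (3.89% and 3.22% of all genes tested). At the adjusted threshold DESeq2 called 2 of the 5 higher and 0 lower, beside 43 higher and 18 lower of the 5090 genes tested.

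**Figure D2:**
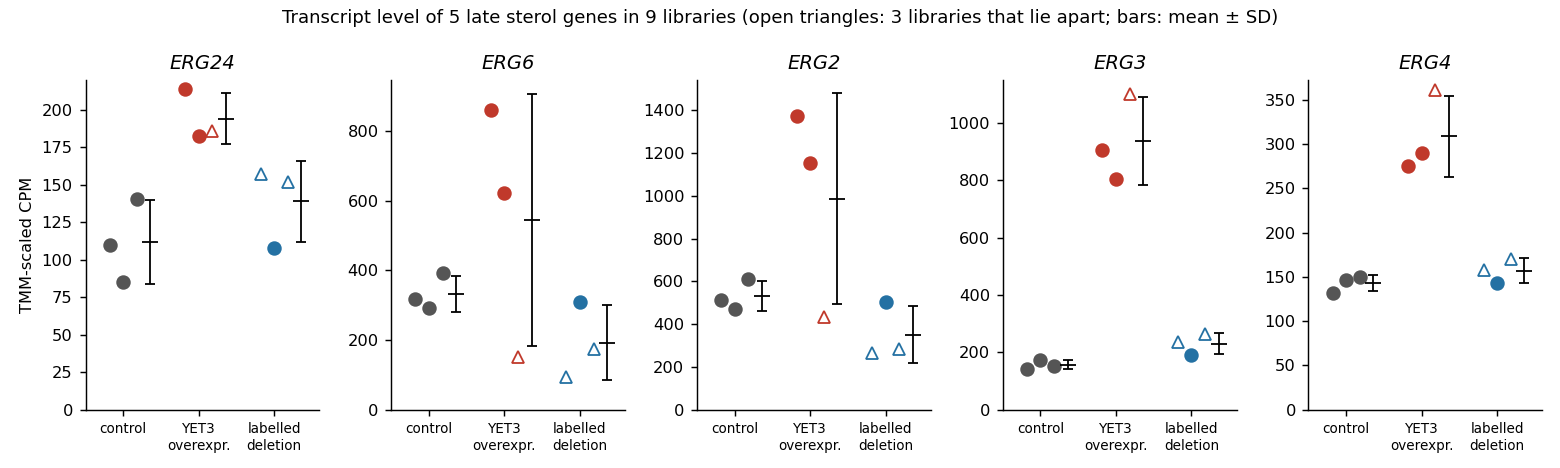
TMM-scaled CPM (y axis, from 0, a separate scale for each gene) in the control, YET3 overexpression and labelled deletion libraries; points are libraries in repeat order, open triangles are the 3 libraries that lie apart, and bars give the mean ± SD of 3. ERG3 is higher in all 3 overexpression libraries (804 to 1103 CPM) than elsewhere, while ERG6 and ERG2 are high only in overexpression 1 and 2.

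ERG24, the C-14 reductase gene (chromosome XIV, 109095 to 110411), stood at 109.8, 85.2 and 141 CPM in control 1 to 3 and at 214, 183 and 186 CPM in overexpression 1 to 3. The groups did not overlap, and control 3, with 32 counts and a 95% exact Poisson interval of 96.2 to 199 CPM for counting error only, was the nearest to them. The log2 fold change was 0.84 (SE 0.25, 95% interval 0.30 to 1.38, adjusted p = 0.266), and it ranged from 0.65 to 1.00 over 18 alternatives. It passed without the 3 libraries that lie apart (0.95, adjusted p = 0.00184) and in a fit with a term for these 3 (0.84, adjusted p = 0.0301).

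ERG6, the C-24 methyltransferase gene (chromosome XIII, 251839 to 252990), stood at 317, 292 and 391 CPM in control 1 to 3 and at 861, 621 and 151 CPM in overexpression 1 to 3. Overexpression 1 and 2 were above and overexpression 3 below the whole control range, so a fit that drops overexpression 3 keeps only the high libraries. The log2 fold change of 0.72 (SE 0.51, 95% interval -0.38 to 1.83, adjusted p = 0.783) therefore averages over opposite directions, with an SD of 361 CPM around a mean of 544 CPM (n = 3). It was 0.23 without overexpression 1 (adjusted p = 0.887) and 1.17 without overexpression 3 (adjusted p = 0.249). Leaving out all 3 libraries that lie apart gave a call (1.19, adjusted p = 7.74e-06), as did the fit with the term (1.06, adjusted p = 0.00797).

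ERG2, the C-8 isomerase gene (chromosome XIII, 667537 to 668205), followed the same order of libraries, with 511, 473 and 611 CPM in control 1 to 3 and 1375, 1154 and 433 CPM in overexpression 1 to 3. Here too overexpression 3 lay below the control range. The log2 fold change was 0.90 (SE 0.37, 95% interval 0.09 to 1.71, adjusted p = 0.668), and 0.59 without overexpression 1 (adjusted p = 0.602). It passed without overexpression 3 alone (1.26, adjusted p = 0.0383), without the 3 libraries that lie apart (1.27, adjusted p = 5.15e-07) and with the term (1.17, adjusted p = 3.53e-04).

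ERG3, the C-5 desaturase gene (chromosome XII, 253861 to 254958), stood at 144, 174 and 154 CPM in control 1 to 3 and at 905, 804 and 1103 CPM in overexpression 1 to 3. The groups were far apart, and overexpression 3 was the highest library rather than the lowest. The mean rose from 157 ± 15.5 to 937 ± 152 CPM (SD, n = 3 each). The log2 fold change was 2.57 (SE 0.23, 95% interval 2.07 to 3.07, adjusted p = 7.79e-05), the eighth largest of 5090 genes. It passed in each of the 18 alternatives, with log2 fold changes of 2.42 to 2.66 and adjusted p up to 0.00265.

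ERG4, the C-24(28) reductase gene (chromosome VII, 472855 to 474276), stood at 132, 146 and 149 CPM in control 1 to 3 and at 275, 290.0 and 361 CPM in overexpression 1 to 3. Overexpression 3 was again the highest. The log2 fold change was 1.12 (SE 0.21, 95% interval 0.66 to 1.57, adjusted p = 0.0269). Its call ended without control 1 (adjusted p = 0.216), control 2 (0.213), control 3 (0.128) or overexpression 2 (0.105), at log2 fold changes of 1.06, 1.13, 1.14 and 1.15. It also ended with a replicate block (1.10, adjusted p = 0.0595), and it held without the 3 libraries that lie apart (1.00, adjusted p = 1.35e-04).

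The 5 genes thus divided into those whose level in overexpression 3 was above the control (ERG24, ERG3 and ERG4) and those whose level there was below it (ERG6 and ERG2). For ERG24, ERG3 and ERG4 the overexpression and control libraries did not overlap, 3 of 5 genes against 8.51% of all genes tested. Relative to the mean log2 level in control, overexpression 3 stood at 0.76 for ERG24, 2.82 for ERG3 and 1.34 for ERG4, and at -1.13 for ERG6 and -0.29 for ERG2. The libraries labelled deletion 1 and 3, which lay apart as well, stood at -1.81 and -0.93 for ERG6 and at -0.999 and -0.890 for ERG2. In the same libraries ERG24 stood at 0.52 and 0.47 and ERG3 at 0.59 and 0.75. The part in this pattern of whatever sets these 3 libraries apart was not tested.

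**Figure D3:**
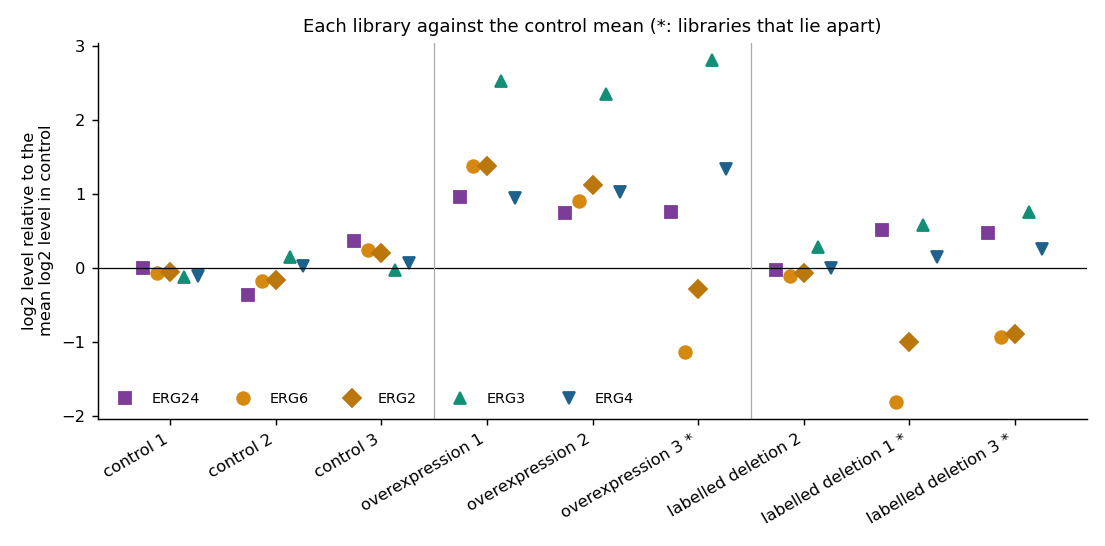
Log2 level of each gene in each library relative to the mean log2 level of the 3 control libraries (y axis); libraries are on the x axis, and an asterisk marks the 3 that lie apart. ERG6 and ERG2 fall below 0 in the 3 marked libraries, and ERG24, ERG3 and ERG4 lie above 0 there.

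The ratio of ERG3 to another member within a library, which library scaling does not touch, was higher in every overexpression library than in any control library for all 4 other genes. ERG3 had the largest log2 fold change of the 5, so its ratio to a gene that changed less tends to separate these groups. The count of 4 is thus no separate result about the other members, and no share over all genes was taken. The log2 ratio of ERG3 to ERG4 was 0.12, 0.25 and 0.04 in control 1 to 3 and 1.72, 1.47 and 1.61 in overexpression 1 to 3, a difference of 1.46. For the ratios to ERG24, ERG6 and ERG2 the differences were 1.75, 2.18 and 1.83. Each of the 4 exact two-sided permutation tests gave p = 0.1, the smallest that 3 against 3 libraries allow, and 0.1 after Benjamini-Hochberg adjustment. The 4 tests share ERG3 and are not independent. Without overexpression 3 the differences to ERG6 and ERG2 were 1.30 and 1.19. The libraries labelled deletion were also all above the control for the ratios to ERG6, ERG2 and ERG4, by 1.49, 1.19 and 0.41 on average. Exact two-sided permutation tests gave p = 0.1 each, and 0.133 after Benjamini-Hochberg adjustment. Deletion 2 only just cleared the highest control library for ERG6 (-0.69 against -0.75) and ERG2 (-1.40 against -1.44). Deletion 1 and 3, which lie apart, stood at 1.31 and 0.61 for ERG6 and at -0.17 and -0.11 for ERG2. The ratio to ERG24 overlapped the control (0.22, exact permutation p = 0.6). Overexpression against the labelled deletion libraries overlapped for the ratios to ERG6 (0.69, exact permutation p = 0.7) and ERG2 (0.63, p = 0.6). For ERG24 and ERG4 every overexpression library was above every labelled deletion library, by 1.53 and 1.05 (exact permutation p = 0.1 each). Of the summed counts of the 5 genes, ERG3 took 10.6% to 14.9% in the control libraries and 24.9%, 26.3% and 49.4% in overexpression 1 to 3. In the libraries labelled deletion 1 to 3 it took 25.9%, 15.3% and 25.3%. The sum itself ran from 1169 to 1446 CPM in the control and stood at 3630, 3052 and 2234 CPM in overexpression 1 to 3 and at 909, 1253 and 1045 CPM in the libraries labelled deletion 1 to 3.

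In the libraries labelled YET3 deletion none of the 5 genes passed the test against the control by edgeR or by DESeq2. By either tool 1 of the 5, ERG3, was higher at an unadjusted p under 0.05 and 0 were lower, where edgeR gave 7.01% and 4.85% of all genes tested. Of all genes tested 0% were called higher and 0.0196% lower. YET3 itself was still counted in these libraries, so each direction is that of libraries labelled as lacking it.

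ERG3 stood at 235, 191 and 264 CPM in the libraries labelled deletion 1 to 3, each above the highest control library at 174 CPM. Its log2 fold change was 0.54 (SE 0.23, 95% interval 0.05 to 1.03, adjusted p = 0.400), and it was the 1 member of 5 with no overlap, against 9.41% of all genes tested. Without the 3 libraries that lie apart, which leaves deletion 2 alone and assumes that it varies like the other groups, it was 0.26 (adjusted p = 0.997).

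ERG6 stood at 94.6, 308 and 173 CPM and ERG2 at 264, 504 and 285 CPM in the libraries labelled deletion 1 to 3. Deletion 2 lay within the control range for both genes, and deletion 1 and 3 lay below it. The log2 fold changes of -0.80 (SE 0.52, 95% interval -1.92 to 0.33, adjusted p = 0.477) and -0.59 (SE 0.38, 95% interval -1.41 to 0.22, adjusted p = 0.466) thus came from the 2 libraries that lie apart, and they were 0.22 and 0.16 in the fit with the term and -0.069 and -0.051 without the libraries that lie apart.

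ERG24 stood at 157, 108 and 152 CPM and ERG4 at 157, 143 and 171 CPM in the same libraries. Both genes overlapped the control, with log2 fold changes of 0.36 (95% interval -0.18 to 0.90, adjusted p = 0.496) and 0.14 (95% interval -0.32 to 0.60, adjusted p = 0.783).

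Set directly against the libraries labelled deletion, the overexpression libraries had more ERG3 transcript, and the other 4 genes missed the threshold. Of the 5 genes 1 was called higher and 0 lower by edgeR, where 0.668% of all genes tested were called higher and 0.0589% lower. At an unadjusted p under 0.05, 4 were higher and 0 lower by edgeR (3.95% and 2.81% of all genes tested). At the adjusted threshold DESeq2 called 3 higher (ERG2, ERG3 and ERG4) and 0 lower. Its counts over all genes are given below with the alternatives. ERG3 had a log2 fold change of 2.03 (SE 0.23, adjusted p = 4.80e-04) and passed in all 18 alternatives. ERG4 gave 0.98 (SE 0.21, adjusted p = 0.0533), and it passed with the term (1.07, adjusted p = 3.99e-04). Without the 3 libraries that lie apart ERG4 gave 0.98, against deletion 2 alone. ERG24 gave 0.48 (SE 0.24, adjusted p = 0.777), although its libraries, like those of ERG3 and ERG4, did not overlap, against 5.3% of all genes tested.

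For ERG6 and ERG2 both groups spanned a wide range and overlapped. Their log2 fold changes were 1.52 (SE 0.52, adjusted p = 0.486) and 1.49 (SE 0.38, adjusted p = 0.149). Without overexpression 3 they were 1.97 (adjusted p = 0.00956) and 1.85 (adjusted p = 0.00167). Without the 3 libraries that lie apart they were 1.26 and 1.33, against deletion 2 alone, so that no spread within its group was seen. With the term ERG2 passed at 1.01 (adjusted p = 0.00355) and ERG6 did not, at 0.84 (adjusted p = 0.120). Among the libraries that lie apart, ERG6 stood at 151 CPM in overexpression 3 against 94.6 and 173 CPM in deletion 1 and 3, whereas ERG2 at 433 CPM was above the 264 and 285 CPM of those libraries. Among the other libraries, overexpression 1 and 2 exceeded deletion 2 for both genes, with 861 and 621 against 308 CPM for ERG6 and 1375 and 1154 against 504 CPM for ERG2.

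**Figure D4:**
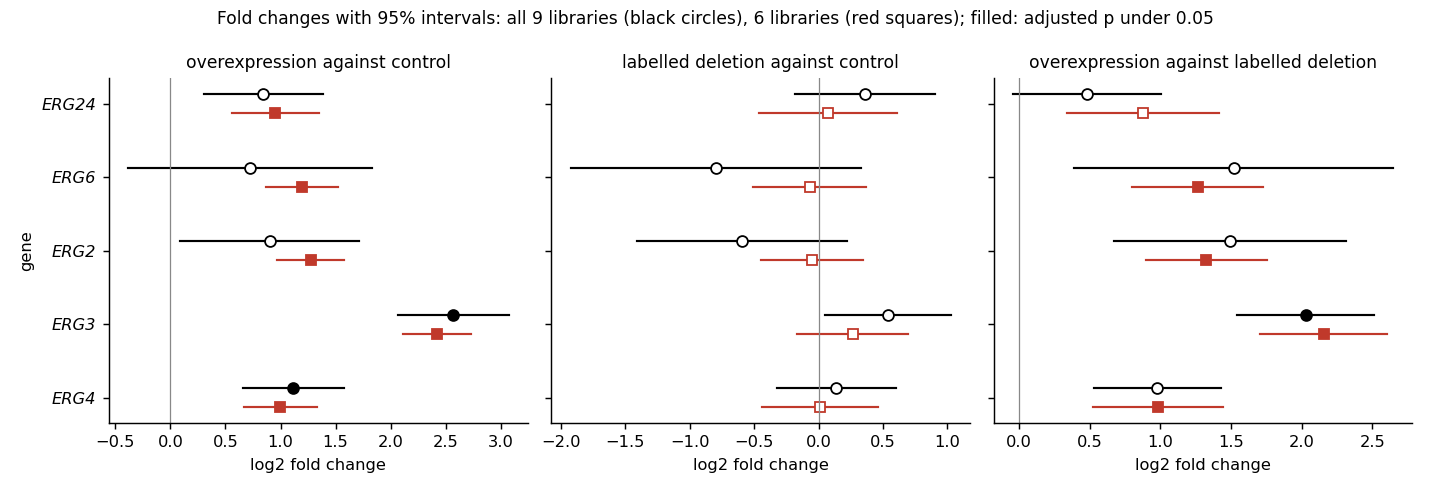
Log2 fold changes (x axis) with 95% intervals in the 3 comparisons, for all 9 libraries (black circles) and for the 6 libraries left without those that lie apart (red squares); filled symbols have an adjusted p under 0.05. Against the control, ERG3 and ERG4 are filled with all 9 libraries and all 5 genes with 6.

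Most other genes of the pathway also had positive log2 fold changes in overexpression, 11 of 11 further genes from squalene synthesis onward and 8 of 9 early genes, beside 2535 of 5090 genes tested. Of the 11, ERG1, ERG25, ERG26, ERG28 and ERG5 were called higher, 5 in all, and 0 lower, with a median log2 fold change of 1.55 beside 0.90 for the 5 members and -0.0019 for all genes tested. Of the 9 early genes, which lead from acetyl-CoA to farnesyl pyrophosphate, 1 was called higher, ERG10, and 0 lower, with a median of 0.48. The 5 calls were 0 without control 1, 2 without control 2 (ERG1 and ERG5), 2 without control 3 or overexpression 2 (ERG26 and ERG5) and 10 without the 3 libraries that lie apart, and that of ERG10 ended without control 1, 2 or 3 or overexpression 1 or 2 and with the replicate block. Without the 3 libraries that lie apart, 2 of the 9 early genes were called, ERG10 and MVD1. These lists were drawn up with earlier results of these data known. In the labelled deletion libraries 0 of the 11 and 0 of the 9 were called by edgeR or DESeq2, and 0 had an unadjusted p under 0.05 by edgeR.

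The 4 genes taken as next to members in the pathway, ERG11, ERG25, ERG28 and ERG5, were above every control library in overexpression 3, unlike ERG6 and ERG2. Other pathway genes were low there too. NCP1 (245 CPM against 365 to 409 CPM in the control) and ERG29 (32.8 against 50.7 to 57.1) were below every control library. So were HMG1 (48.1 against 64.35 to 87.9) and HMG2 (50.3 against 109.8 to 131.9). ERG9, ERG12 and ERG8 lay within the control range, and the rest of the listed pathway genes above it. ERG11, which encodes the C-14 demethylase that supplies the substrate of Erg24, stood at 238 to 303 CPM in the control and at 1126, 957 and 315 CPM in overexpression 1 to 3. ERG25, of C-4 demethylation, stood at 123 to 186 CPM and at 995, 878 and 379 CPM. Of the 3 overexpression libraries both genes were lowest in the last. ERG28, the scaffold of the C-4 demethylation complex, stood at 185 to 265 CPM in the control and at 521, 668 and 1059 CPM in overexpression 1 to 3. ERG5, which encodes the C-22 desaturase acting between Erg3 and Erg4, stood at 17.6 to 33.1 CPM and at 78.4, 100.9 and 140.0 CPM. Its control level rests on few counts, 13, 54 and 4 in control 1 to 3. ERG28 and ERG5 were highest in overexpression 3.

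UPC2 had few counts, 3 to 33 per library, and stood at 14.1, 16.5 and 17.6 CPM in control 1 to 3 and at 53.4, 52.0 and 28.4 CPM in overexpression 1 to 3. It stood at 8.87, 19.7 and 7.99 CPM in the libraries labelled deletion 1 to 3. Its lowest overexpression library and its 2 lowest libraries of all were among those that lie apart. The log2 fold change against the control was 1.504 (SE 0.38, adjusted p = 0.131), which passed without overexpression 3, without the 3 libraries that lie apart and with the term for them. Against the labelled deletion libraries UPC2 was called higher, at 1.91 (SE 0.39, adjusted p = 0.0416), a call that ended without control 1, 2 or 3, overexpression 1 or 2, deletion 1 or 3, or the 3 libraries that lie apart, with the replicate block and in the 6 libraries compared. ECM22 gave 0.47 (SE 0.25, adjusted p = 0.744) and stood at 50.6 to 56.2 CPM in the labelled deletion libraries, within the control range of 38.0 to 57.1 CPM.

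Of the 10 nearest protein-coding genes on either side of the members, 8 passed the filter on low counts, and 0 were called by edgeR or DESeq2 in any of the 3 comparisons. At an unadjusted p under 0.05 none differed in either comparison of overexpression and 1, SPT8, was lower in the labelled deletion libraries by either tool. The 2 that the filter removed were MIN4, beside ERG6, and PRM1, which is divergent from ERG24. PRM1 had 5, 3 and 0 counts in control 1 to 3 (7.13, 1.85 and 0 CPM) and 9, 6 and 16 counts in overexpression 1 to 3 (14.7, 9.21 and 34.5 CPM). Unlike the other CPM here, those of PRM1 were not scaled by TMM. Every overexpression library was above every control library, with no test. SPT8 encodes a subunit of the SAGA coactivator complex and is divergent from ERG3 across 780 bases that hold the 4 matches shown. It stood at 56.3, 61.9 and 83.5 CPM in control 1 to 3, at 45.1, 44.1 and 19.7 CPM in overexpression 1 to 3 and at 17.1, 48.5 and 18.7 CPM in the libraries labelled deletion 1 to 3. The lowest 3 were the libraries that lie apart. Its log2 fold change against the control was -0.80 in overexpression (SE 0.40, adjusted p = 0.744) and -1.23 in the labelled deletion libraries (SE 0.41, adjusted p = 0.400).

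The genes whose profile over the 9 libraries was most like that of each member also differed between members. Likeness was measured as Pearson's r of log2 CPM over all 9 libraries among 4574 genes, with the members left out of the search. It is a description, since the libraries share strains and those that lie apart weigh on every r. Between members, ERG3 and ERG4 had r = 0.986, closer than either was to any gene found by the search. ERG6 and ERG2 had r = 0.947, and the other pairs of members 0.16 to 0.82. ERG3 was most like the heme synthesis gene HEM13 (r = 0.98), the repressor gene NRG2 (0.97) and ERG5 (0.96). For ERG4 they were the transaldolase gene NQM1 (0.98), YJL213W (0.98) and YPR145C-A (0.96). ERG6 was most like the mitochondrial porin gene POR1 (0.98), the acyl-CoA synthetase gene FAA4 (0.97) and the aldehyde dehydrogenase gene ALD3 (0.97), and ERG2 most like the fatty acid synthase gene FAS2 (0.99), ROQ1 (0.99) and WWM1 (0.97). ERG24 had the least close partners, ROG3 (0.92), OSW2 (0.89) and YSR3 (0.89). No gene appeared among the 3 most alike of more than 1 member.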

How the data were processed

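The authors deposited a table of whole-number counts per open reading frame for each library, with no normalization. Cutadapt, UMI-tools and build R64 are named per the submitters' processing notes; the aligner, the counted part of a transcript and the use of strand are not stated there. Of 6631 rows, 2 repeat an identifier (HTB2 and HHT2) and their second occurrence was left out, which leaves 6629. Symbols and positions came from the RefSeq annotation of R64, which matched 5956 identifiers; no annotated gene overlaps a member. Genes were kept with edgeR's filterByExpr (minimum count 10, minimum total 15), TMM set the scale, and 1 quasi-likelihood fit took all 9 libraries with a coefficient per group. P-values were adjusted by Benjamini-Hochberg over 5090 genes at 0.05, and each SE was derived as the ratio of a log2 fold change to the root of its F. R 4.3.3, edgeR 4.0.16 and DESeq2 1.42.0 were used, and the fit was tested on simulated data. Those data held no shift like that of the 3 libraries that lie apart, so they cannot tell how the fit deals with it. Replicate pairs differed beyond sampling noise (chi-square per degree of freedom 1.50 to 18.1), so none was merged. Named genes were the members, 20 other pathway genes given as counts, UPC2, ECM22, YET3, HO, the neighbours and the 3 most alike genes (mean of at least 20 CPM, prior count 2). Of the pathway genes, ERG11, ERG25, ERG28 and ERG5 were given by library. Those called, and those not above the control in overexpression 3, were named after their values were seen. Members, lists and tests were chosen with earlier results of these data known. Alternatives were the Wald test of DESeq2, its size factors in edgeR, no filter, a filter of 20 CPM in 3 libraries, the 6 libraries compared, a replicate block, tables lacking YET3 and HO, leaving out each library and, for ratios of members, 1 CPM added to both. Fits without the 3 libraries that lie apart and with a term for them were added after seeing the data. The former leave deletion 2 alone in its group, so its spread is taken from the other groups. They also leave only overexpression 1 and 2 in that group. Overexpression 3, in which ERG6 and ERG2 were low, is dropped by the former and adjusted by the latter. The calls of ERG6 and ERG2 in these fits are thus no independent result.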

Additional observations from a re-analysis of the deposited data

How the results depend on the processing

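In all 18 alternatives ERG3 kept its call in both comparisons of overexpression, and none of the 5 genes was called against the control in the libraries labelled deletion. With a term for the 3 libraries that lie apart, the values of ERG6, ERG2 and ERG4 there changed sign, to 0.22, 0.16 and -0.051 (adjusted p = 0.999 each); the cause was not tested. Members called higher in overexpression against the control numbered 2. They were 1 with a replicate block (ERG4 at adjusted p = 0.0595), 5 without the 3 libraries, 5 with the term, and 1 to 3 with a library left out. Against the labelled deletion they numbered 1. They were 3 by DESeq2, 3 with the term, and 1 to 3 with a library left out. Without the 3 libraries deletion 2 is alone in its group. No count of calls from that fit is given for either comparison with the labelled deletion. Over all genes, overexpression against the control gave 32 higher and 11 lower, against 90 and 76 without the 3 libraries and 72 and 41 with the term; DESeq2 gave 18 lower and the replicate block 4. With a library left out the counts ran from 9 to 37 and from 2 to 13. Overexpression against the labelled deletion gave 34 higher and 3 lower, against 54 and 5 by DESeq2, 59 and 17 without the 3 libraries and 89 and 17 with the term, 13 higher in the 6 libraries compared, and 14 to 57 and 1 to 17 with a library left out. The labelled deletion against the control gave 1 lower, against 5 by DESeq2, 3 in its 6 libraries, and 1 to 5 with a library left out. The repeat numbers did not pair the libraries: correlations of same-numbered deviations from group means ran from -0.46 to 0.51, not every library correlated best with its own number, and the block changed no other call of a member. The 4 differences in the log2 ratio of ERG3 to another member ran from 1.19 to 2.70 with a library left out. The shallowest library, control 3, held 32 to 139 counts of each member, so its values are the least precise.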

Other observations

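Outside the 5 members, genes were also counted by their matches to TCGTATA, TCGTTTAG or TCGTTCAG, on either strand, in the 600 bases before their start codon. The count was made after the members' matches were seen. This window had been chosen on the members, and the shorter one was not counted. Of 37 tested genes with 2 or more matches, 4 were called higher in overexpression against the control, which is 10.8%. They were CYB5, which encodes cytochrome b5, an electron donor of sterol synthesis, the sterol oxidase gene ERG25, the anaerobic mannoprotein gene DAN1 and PBI1. Of 522 genes with 1 match, 9 were called higher (1.72%), among them ERG1, ERG28, TIR1, TIR3, HES1 and ATF2. Of 4448 genes with no match, 17 were called higher (0.382%), among them ERG10, ERG26, ERG5, HEM13, OLE1 and the overexpressed gene YET3 itself. The median log2 fold changes of these 3 sets were 0.14, 0.06 and -0.0068. Without the 3 libraries that lie apart, 5 of 42, 21 of 537 and 59 of 4578 genes were called higher. Without control 1 they were 2 of 41, 3 of 532 and 3 of 4524 genes, and without control 2 they were 2 of 41, 5 of 534 and 5 of 4519. Upstream regions of divergent genes share bases and members of gene families may share sequence, so these genes are not independent, and no test was made.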
